A study of Bos taurus with 4 samples.

Results

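Genes of mitochondrial protein import and of the CHCHD family were compared between spermatozoa of low-fertile and high-fertile Murrah buffalo bulls. The genes were chosen by name: every sample probe on the array whose gene name begins with TIMM, TOMM, CHCHD, PAM16, DNLZ, GRPEL, SAMM50, MTX or PHB was taken. This gave 75 probes in 82 spots for 40 genes, of the 32429 gene names on the array. The set was proposed because CHCHD2 had a large fall in these same arrays, so the values of CHCHD2 are given as a description, with no test, and CHCHD2 is left out of the counts.

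The labels give 2 groups of breeding bulls, high fertile and low fertile, with no treatment and no age stated. Each group is represented by 2 arrays, and each array was hybridized with 1 pool of equal amounts of RNA from 2 bulls, isolated from Percoll-selected spermatozoa. The bulls had been ranked on field conception rate, and the pools are numbered here as high-fertile pools 1 and 2 and low-fertile pools 1 and 2. Labelled RNA was primed with oligo-dT, carried 1 dye and was hybridized to probes designed on cattle sequence, although the animals were buffaloes. All arrays were on 1 slide, with the high-fertile pools in one row and the low-fertile pools in another, so the fertility group and the place on the slide cannot be told apart.

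Mitochondria make few of their own proteins and import the rest from the cytosol as precursors. The TOM complex of the outer membrane receives precursors, the SAM complex inserts barrel proteins into that membrane, the small TIM chaperones carry hydrophobic precursors across the intermembrane space, and the TIM22 and TIM23 complexes pass them into or through the inner membrane, where a motor built on a matrix Hsp70 pulls them in. CHCHD proteins carry a coiled-coil-helix fold with pairs of cysteines spaced by 9 residues (the CX9C motif), and most of them are trapped in the intermembrane space when the oxidoreductase CHCHD4 forms their disulfide bonds. CHCHD2 is such a protein. It supports respiration, restrains apoptosis, and can act in the nucleus as a transcription factor. In spermatozoa the mitochondria are packed around the midpiece of the tail.

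CHCHD2 was read by 3 probes, which are shown because they differ in where they lie on the transcript and in the size of the difference they gave. All coordinates are on the cattle build Btau_3.1. The probes lie on the minus strand at chr25:29585081-29586347, chr25:29584804-29584863 and chr25:29584794-29584852, and begin 460, 737 and 748 bases into the transcript. The first spans 1267 bases of the genome for its 60 bases, so it crosses an exon junction, and it is printed whole. It has a reading frame without a stop in which the capitals mark a pair of TGC cysteine codons with 9 codons between them, the spacing of a CX9C motif. A cysteine codon (TGC or TGT) followed by another after 27 bases, in any frame of the printed strand, was found in 4.67% of the 51282 sample probes. The other 2 share a run of 49 bases with each other and have stops in all 3 frames, and only their last 30 bases are printed. Capitals in the last one mark AATAAA, the common polyadenylation signal, which was found in the printed strand of 8.35% of sample probes.
CHCHD2 exon-junction probe: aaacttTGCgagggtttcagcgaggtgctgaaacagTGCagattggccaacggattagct
CHCHD2 brightest probe, last 30 bases: gcttttctgatgttattgtttgtgacttga
CHCHD2 transcript-end probe, last 30 bases: tgttattgtttgtgacttgattagAATAAA

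CHCHD2 signal was lower in both low-fertile pools than in both high-fertile pools on every one of these probes. The brightest probe is the one with the highest mean normalized log2 signal over the arrays. On it, the processed signal (scanner brightness after background subtraction) was 407 and 414 in high-fertile pools 1 and 2, against 54.2 and 43.0 in low-fertile pools 1 and 2. After each array was expressed relative to its own 75th percentile, the normalized log2 signal averaged 3.48 ± 0.01 (SD, n = 2) in the high-fertile group and 0.47 ± 0.11 (SD, n = 2) in the low-fertile group. The log2 fold change, low-fertile minus high-fertile here and throughout, was -3.00 (SE 0.146), an 8.01-fold lower level. The groups did not overlap and each pair of pools lay close together. This probe is printed in 2 spots at distant places on the array, and both carried the difference: one gave 406, 412, 55.5 and 47.3, and the other 407, 416, 53.0 and 39.0, in the pool order above.

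The other CHCHD2 probes moved in the same direction by different amounts. On the exon-junction probe the signal was 125 and 132 in high-fertile against 55.7 and 43.5 in low-fertile pools, a log2 fold change of -1.29 (SE 0.15). On the transcript-end probe it was 426 and 430 against 33.3 and 18.0, a log2 fold change of -4.04 (SE 0.255), and low-fertile pool 2 was not well above background there. On the 2 probes detected in every pool, the fall was 2.45-fold for the exon-junction probe and 8.01-fold for the brightest one, while the value of the transcript-end probe includes a low-fertile pool in which it was not well above background. Correcting the signals for probe GC content, as described below, gave -2.89, -1.38 and -3.23 for the brightest, exon-junction and transcript-end probes. Background correction with normexp gave the smallest value of the settings tried for the brightest probe, -2.12, and a shift by spike-in probes the largest, -3.41.

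Of 12552 probes detected in every pool, 2 had a more negative log2 fold change than the brightest CHCHD2 probe, those of ENSBTAT00000020341 (-4.56, SE 2.88) and DHRS7B (-3.54, SE 2.08), and their standard errors were many times larger. CHCHD2 was followed by YBX1 (-2.77, SE 0.141). The fall of CHCHD2 was among the values behind the choice of the set, so its rank is a description and no support. Over all 16685 tested genes, which include genes near background in the low-fertile pools, CHCHD2 ranked 63 from the lowest.

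**Figure D1:**
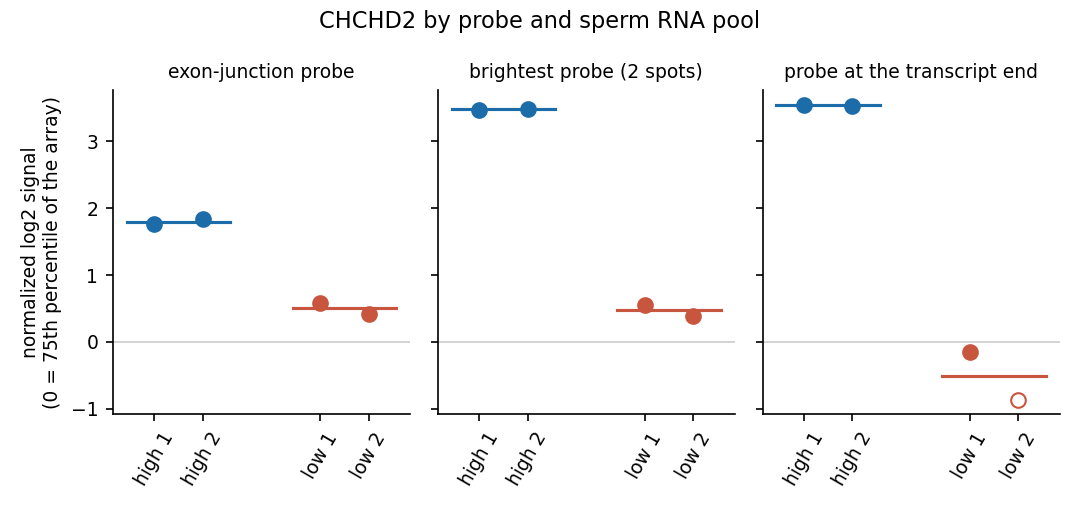
Normalized log2 signal (0 is the 75th percentile of the array) of the 3 CHCHD2 probes in each pool, with filled points for probes well above background, open points for those that were not, and lines for group means. The low-fertile pools lie below the high-fertile pools on each probe, with log2 fold changes of -1.29, -3.00 and -4.04 from left to right, the last with an open point in low-fertile pool 2.

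About the same number of the 40 genes was detected in 3 of the pools and fewer in low-fertile pool 2. Detection here means that at least 1 probe of the gene carried the scanner software's mark for well above background. By this measure the high-fertile pools detected 24 and 25 genes, and low-fertile pools 1 and 2 detected 26 and 17. The same array stood apart over the whole array, with 13033 probes well above background against 23228 to 25642 on the others. All 4 pools detected 17 of the genes and 11 were detected in none. By the probes that carry these names, the 11 were CHCHD1 (a mitochondrial ribosome protein), CHCHD4, GRPEL1 (the exchange factor of the matrix Hsp70), MTX2 and MTX3 (metaxins of the outer membrane), TIMM21 (a subunit of TIM23), TIMM8A (a small TIM), TIMMDC1 (a complex I assembly factor), TOMM5 (a small TOM subunit), TOMM20L (a TOMM20 paralog) and TOMM70A (a TOM receptor, now TOMM70). The CHCHD4 signal was 3.93 and 14.1 in the high-fertile and 13.0 and 6.46 in the low-fertile pools. Over the 25 probes well above background on no array, the signals ran from 3.12 to 19.2, and such values are only upper bounds.

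A probe was tested when both arrays of a group, or of both groups, showed it well above background, and each gene was read from its brightest tested probe. On this basis 23 of the 40 genes, and 36 of their probes, were tested. A further 6 genes were seen in some pool but did not reach the filter: CHCHD7, CHCHD8 (now COA4), TIMM13 and TIMM44 in 1 pool each, TOMM7 in 1 pool, and GRPEL2 in 1 pool of each group. DNLZ matched no probe.

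**Figure D2:**
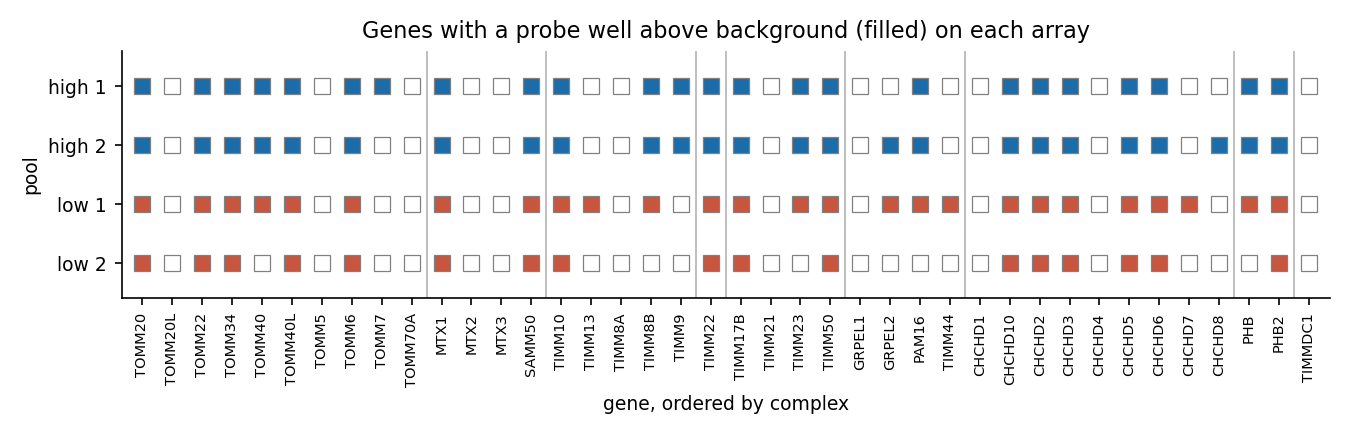
Detection of the 40 genes (horizontal axis, ordered by complex) in each of the 4 pools (vertical axis), where a filled square means at least 1 probe well above background. The row of low-fertile pool 2 has 17 filled squares, against 24 to 26 in the other rows.

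Of the 22 tested genes other than CHCHD2, 5 were lower in the low-fertile pools at an adjusted p under 0.05 (22.7%) and 0 were higher, in limma with Benjamini-Hochberg adjustment over all 21033 tested probes. Over all 16685 tested genes, 16.6% were called lower and 9.53% higher. The lower genes were TOMM20 and TOMM22 of the outer membrane translocase, the small TIM chaperones TIMM9 and TIMM10, and the prohibitin PHB (now PHB1). At an unadjusted p under 0.05, limma gave 6 lower and 2 higher of the 22 genes, beside 22.9% and 18.1% over all tested genes. The methods' t-test gave 6 lower and 1 higher, beside 16.2% and 12.7%, with 0 after adjustment. The median log2 fold change was -0.03 over the 22 genes, against 0.01 over all tested genes. The signs were split, with 12 negative and 10 positive values, although 20 were negative when arrays were aligned on the 7 spike-in probes, a setting that moved the median of all tested probes from -0.00 to -0.42.

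Detection in the low-fertile pools bears on these counts. Of the 22 genes, 16 were detected in every pool with the probe used and 6 qualified through the high-fertile pools alone, a filter that selects genes high in that group. TIMM9 and PHB are among those 6, so their calls are not independent of the filter. With probes required to be well above background on all 4 arrays, 4 of 16 genes (TOMM20, TOMM22, TIMM10 and TIMM17B) were called lower (25%, background 12.3%) and 0 higher (background 21.6%), with a median log2 fold change of 0.04 against 0.15 over all 10639 genes. Normexp background correction, with an offset of 50, gave smaller values for the 5 genes, between -1.22 for TOMM20 and -0.26 for TIMM10, with TOMM22 at -0.44, TIMM9 at -0.55 and PHB at -0.29, and all 5 passed the adjusted p. Without high-fertile pool 1, high-fertile pool 2 or low-fertile pool 2 in turn, 2 of the 22 genes were called lower, and without low-fertile pool 1, 5 were. Each limma p-value rests on 2 pools a group. Its variance is drawn partly from all tested probes, so it does not measure the spread between the gene's own pools alone. The methods' t-test uses only those pools, and it called 0 of the 22 genes after adjustment.

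**Figure D3:**
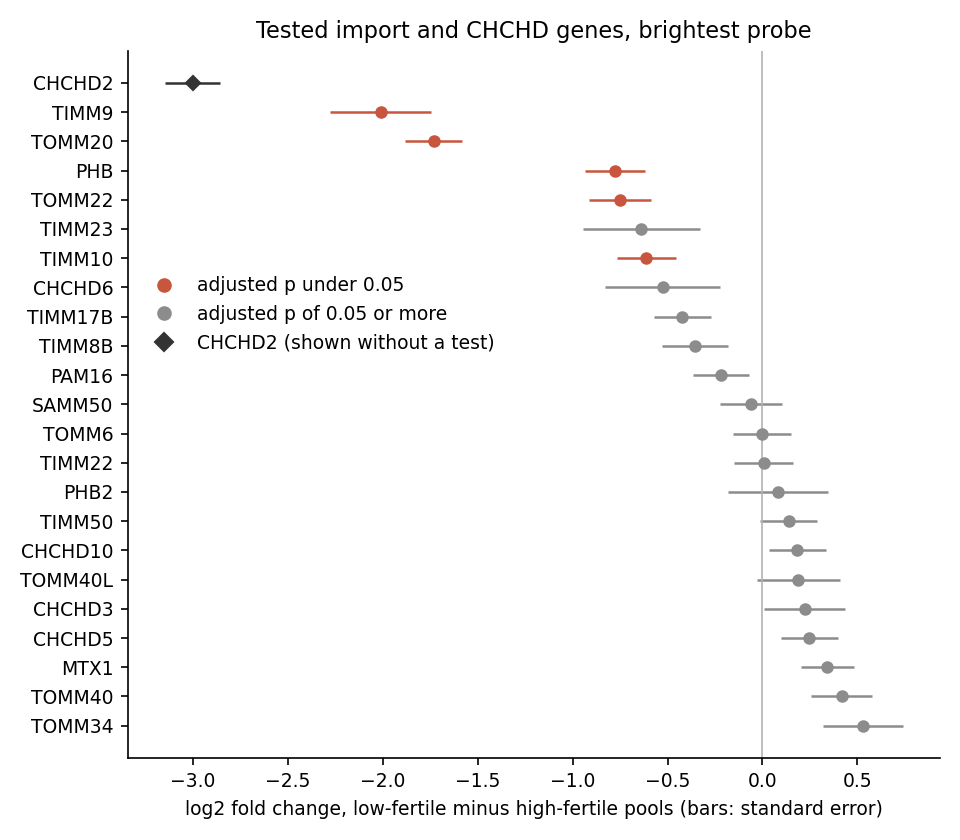
Log2 fold change, low-fertile minus high-fertile, of the 23 tested genes read from the brightest probe, with bars for the standard error. CHCHD2 is at -3.00 and the 5 genes called lower lie between -2.01 and -0.61, while the 17 genes not called lie between -0.64 and 0.53.

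TOMM20, the receptor that recognises presequences at the outer membrane, fell on all of its 3 probes. The probes lie on the minus strand of chromosome 28 at chr28:6363157-6363216, chr28:6363132-6363191 and chr28:6362149-6362208, beginning 611, 636 and 1619 bases into the transcript. Each has stops in all 3 frames. The first 2 share 35 bases, so they are not independent readings, whereas the last lies further along the transcript. Their last 30 bases are shown, with AATAAA in capitals.
TOMM20 first probe: acagtgaagtctaccaaagttaatttttac
TOMM20 second probe: tttactttgtgtagatccatttgtctgttt
TOMM20 last probe: atatcagacctaagAATAAAgatccttggt

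The last TOMM20 probe was the brightest. Its signal was 254 and 255 in the high-fertile and 82.4 and 63.2 in the low-fertile pools, with normalized log2 signals of 2.79 ± 0.01 and 1.05 ± 0.14 (SD, n = 2 each). The log2 fold change was -1.73 (SE 0.151, adjusted p = 0.00271, limma), a 3.32-fold lower level. The second probe read 57.2 and 70.5 against 17.1 and 20.5 (log2 fold change -1.68, adjusted p = 0.00526, limma). It was not well above background in low-fertile pool 2, so it entered the test through the high-fertile pools alone. The first read 143 and 162 against 67.2 and 57.3 (log2 fold change -1.21, adjusted p = 0.005, limma). The groups did not overlap on any of them, and TOMM20 had the largest fall among the genes called lower on a probe detected in all 4 pools.

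TOMM22, the central receptor that holds the TOM complex together, was measured at 71.0 and 86.9 in the high-fertile pools, against 47.9 and 40.4 in the low-fertile ones. The difference was -0.75 on the log2 scale (SE 0.163, adjusted p = 0.0245, limma). The groups were apart, but leaving out any 1 of the 4 pools took the adjusted p to between 0.0526 and 0.12, and with the GC correction the log2 fold change was -0.16 (adjusted p = 0.483, limma). The other 2 TOMM22 probes were well above background in no pool.

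The other tested TOMM and SAM genes were not called on their brightest probe. TOMM40, the channel of the complex, had a log2 fold change of 0.42 and its paralog TOMM40L one of 0.19. TOMM34, a cytosolic co-chaperone of precursors, had 0.53 (adjusted p = 0.119, limma, and 0.042 without low-fertile pool 1). In the SAM complex, SAMM50, which forms the insertion pore, had -0.06. Of 10 genes named TOMM, 6 were tested and 2 called lower, and of 4 SAM genes, 2 were tested and 0 called, beside 16.6% lower and 9.53% higher over all tested genes.

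TIMM9 and TIMM10 form a chaperone ring that carries precursors through the intermembrane space, and both were lower. TIMM9 read 36.9 and 48.4 in the high-fertile pools, against 13.2 and 7.40 in the low-fertile pools, where it was not well above background on either array, so that it entered the test through the high-fertile pools alone. Relative to the 75th percentile its measured level was 4.03-fold lower (log2 fold change -2.01, SE 0.266, adjusted p = 0.00597, limma). With pools left out in turn, the log2 fold change ran from -2.34 to -1.68. These values hold for that scale alone, since the log2 fold change was -0.55 with normexp and -1.20 with the GC correction. TIMM10 was detected in all 4 pools on its brightest probe, at 75.8 and 80.6 against 55.4 and 41.9, with a log2 fold change of -0.61 (SE 0.156, adjusted p = 0.0389, limma).

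The other TIMM10 probes had the same direction. One read 45.9 and 45.5 against 30.3 and 15.9 (log2 fold change -0.97, adjusted p = 0.0471, limma). The other read 52.3 and 31.9 against 27.5 and 17.2 (log2 fold change -0.83, adjusted p = 0.0958, limma). The pools of the 2 groups did not overlap on any TIMM10 probe. However, low-fertile pool 2 was not well above background on the last 2, so these entered the test through the high-fertile pools alone. On the brightest probe the adjusted p was 0.121 without high-fertile pool 1, 0.158 without high-fertile pool 2 and 0.118 without low-fertile pool 2, 0.0762 with the 75th percentile taken over detected probes, and 0.0734 with each spot corrected for its 24 nearest spots, all in limma. TIMM8B, another small TIM, had a log2 fold change of -0.36 (adjusted p = 0.185, limma).

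Of the TIM22, TIM23 and motor genes matched by the name rule, 1, 3 and 1 were tested and 0 were called, beside 16.6% lower and 9.53% higher over all tested genes. In the TIM23 complex, which handles presequence proteins, the log2 fold changes were -0.64 for the channel TIMM23, -0.42 for TIMM17B and 0.14 for the receptor TIMM50. TIMM17B read 155 and 175 in the high-fertile against 118 and 113 in the low-fertile pools, with no overlap, and had an adjusted p of 0.0917 in limma (0.0484 when only probes well above background on all 4 arrays were tested). TIMM22, the channel for carrier proteins, had 0.01, and PAM16, a regulator of the import motor, -0.22. TIMM23 had an adjusted p of 0.175 in limma, and 0.0475 without low-fertile pool 1.

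PHB and PHB2 build the ring-shaped prohibitin scaffold of the inner membrane, and they were called differently. PHB read 42.1 and 42.3 in the high-fertile pools against 26.9 and 20.1 in the low-fertile ones (log2 fold change -0.78, SE 0.157, adjusted p = 0.0198, limma). Its probe was not well above background in low-fertile pool 2, so it entered the test through the high-fertile pools alone. Without low-fertile pool 2 the adjusted p was 0.0636, and without high-fertile pool 1 or 2 it was 0.087 and 0.0878. With each spot corrected for its 24 nearest spots it was 0.121, and with the GC correction the log2 fold change was 0.04 (adjusted p = 0.857, limma). The other PHB probe, which did not reach the filter, read 19.3 and 15.4 in the high-fertile and 18.1 and 13.6 in the low-fertile pools, with overlapping groups. PHB2 had a log2 fold change of 0.08 (adjusted p = 0.832, limma), with overlapping groups. The difference between PHB and PHB2 was not tested.

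**Figure D4:**
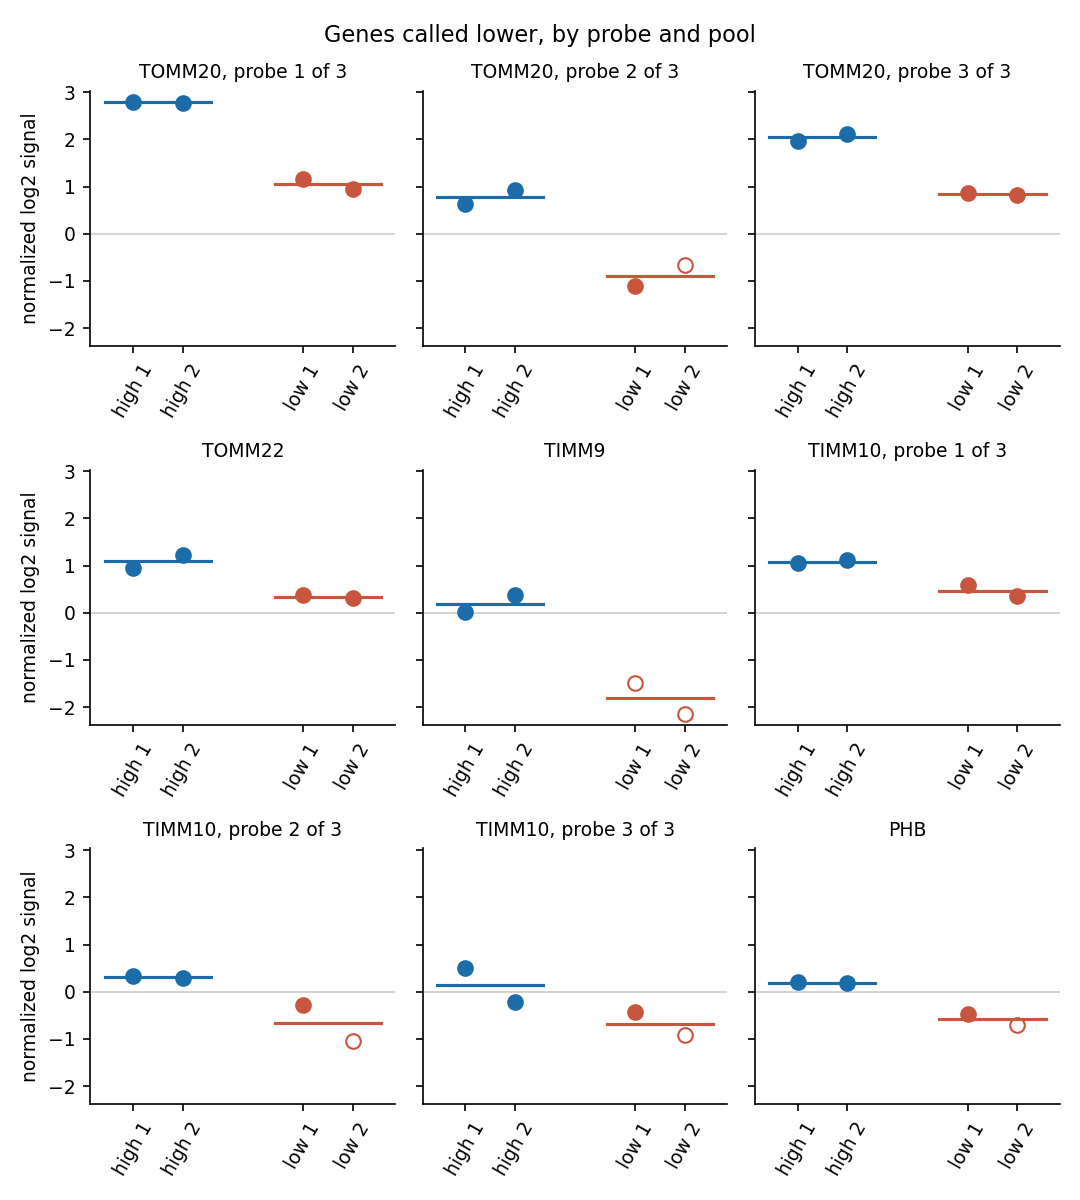
Normalized log2 signal (0 is the 75th percentile of the array) of every tested probe of the 5 genes called lower, in each pool, with open points where the probe was not well above background and lines for group means. The low-fertile pools lie below the high-fertile pools in all 9 panels, which show genes chosen because they were called lower. The points of TIMM9 in both low-fertile pools are open. Over the 22 tested genes besides CHCHD2, the low-fertile pools lay apart below in 9 and apart above in 6, and the groups overlapped in 7. The share of separated groups over all tested genes was not counted.

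Of the 9 CHCHD genes 5 were tested, and none of the 4 besides CHCHD2 was called, beside 16.6% lower and 9.53% higher over all tested genes. CHCHD10, the paralog of CHCHD2, read 91.0 and 102 in the high-fertile and 104 and 102 in the low-fertile pools (log2 fold change 0.18, adjusted p = 0.402, limma), and its second probe had 0.12. CHCHD3 and CHCHD6, which shape cristae as subunits of the MICOS complex, had log2 fold changes of 0.22 and -0.53. For CHCHD6 the high-fertile pools differed, at 1843 and 1011 against 896 and 891 in the low-fertile pools. CHCHD5, a soluble CX9C protein, read 224 and 238 against 260 and 257 (log2 fold change 0.25). These small positive values, with those of MTX1, PHB2, TIMM22, TIMM50 and TOMM40L, turned negative under the spike-in shift.

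Besides CHCHD2, 9 genes had several tested probes, and 7 had the same sign on all of them, while CHCHD3 and CHCHD5 did not. In 2 genes another probe was called while the brightest was not. For MTX1, a metaxin of the SAM complex, the brightest probe read 68.9 and 70.5 in the high-fertile and 90.5 and 76.4 in the low-fertile pools (log2 fold change 0.34, adjusted p = 0.127, limma). Its other probe read 52.9 and 50.02 against 110 and 94.6, a log2 fold change of 1.07 (adjusted p = 0.00602, limma), and was the 1 probe of the set called higher. For TOMM6, a small TOM subunit, the brightest probe had a log2 fold change of -0.00 (adjusted p = 0.992, limma). The other TOMM6 probe read 84.1 and 90.3 against 59.5 and 54.3 (log2 fold change -0.53, adjusted p = 0.0447, limma).

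The GC content of the probes moved with the fold changes. Over all 21033 tested probes Pearson's r between GC content and log2 fold change was 0.44, a description across probes of the same 4 arrays. Below 38% GC the median was -0.83 and 53.3% of probes were called lower, while at 52% GC or more the median was 0.24 and 2.62% were called lower. The 9 probes of the set called lower, those of CHCHD2 left out, had a median GC content of 36.7% (range 35% to 60%), and the 23 not called one of 45% (range 35% to 76.7%).

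After a correction of the log2 signals for GC content, chosen after seeing the data, 3 of the 22 genes were called lower (13.6%, background 11.5%) and 0 higher (background 8.72%). These were TOMM20 (log2 fold change -0.92, adjusted p = 0.0141, limma), TIMM9 (-1.20, adjusted p = 0.0287, limma) and TIMM10 (-0.79, adjusted p = 0.0287, limma), of which TIMM9 had entered the test through the high-fertile pools alone. PHB, on a probe of 35% GC, and TOMM22, on a probe of 38.3% GC, were no longer called. The TIMM10 probes have 53.3% to 60% GC, within the range where all tested probes had a median log2 fold change of 0.24. The MTX1 probe that was called higher kept a log2 fold change of 1.18 (adjusted p = 0.00942, limma), and the TOMM6 probe called lower went to 0.17 (adjusted p = 0.403, limma).

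**Figure D5:**
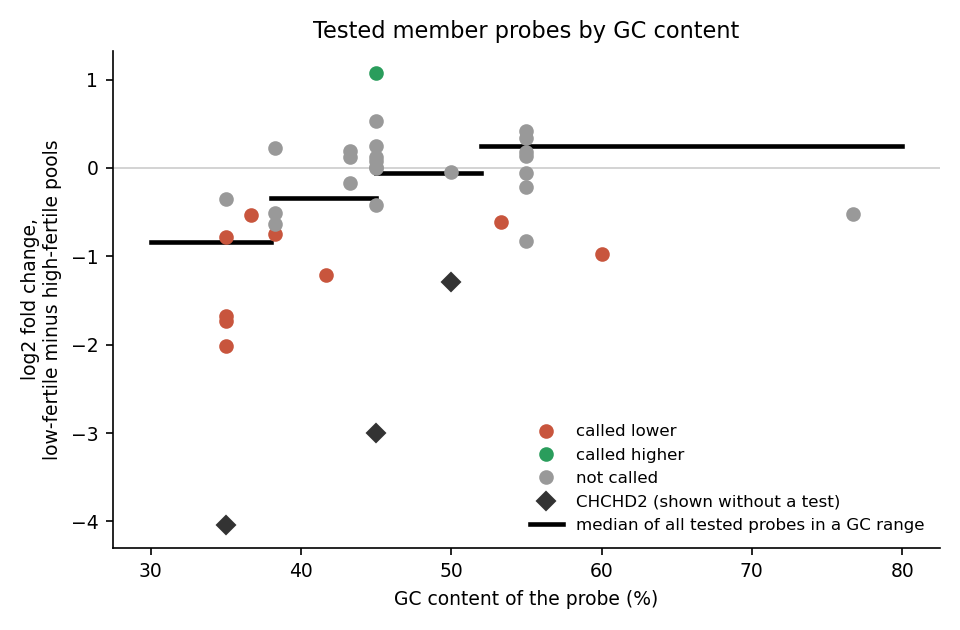
Log2 fold change, low-fertile minus high-fertile, of the 36 tested probes of the set against their GC content in percent, with black lines for the median of all tested probes in 4 GC ranges. The medians of the array rise from -0.83 to 0.24 with GC content, the CHCHD2 diamonds lie well below the line of their range, and PHB at 35% GC lies near it.

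Other genes that act with the import machinery were read from 3 lists. Each list gene was read from its brightest probe, tested probes first, so detection on its other probes was not counted. In a list of 35 chaperones, peptidases, proteases and membrane scaffolds of mitochondrial import and quality control, 20 were tested, 5 were called lower and 1 higher, with a median log2 fold change of -0.17 against 0.01 over all genes, of which 16.6% were called lower and 9.53% higher. With probes required to be well above background on all 4 arrays, 4 of 14 were called lower and 1 higher, beside 12.3% and 21.6% over all genes. HSPD1, the matrix chaperonin that folds imported proteins, read 26.8 and 33.8 in the high-fertile pools against 6.76 and 7.50 in the low-fertile pools, where it was not well above background. It entered the test through the high-fertile pools alone. Its log2 fold change was -1.99 relative to the 75th percentile (adjusted p = 0.00316, limma) and -0.37 under normexp. The other lower genes, named after their values were seen, were its co-chaperonin HSPE1 (-1.13), the cytosolic chaperones HSPA8 (-1.24, which also entered through the high-fertile pools alone) and HSP90AA1 (-1.27), and ROMO1 (-0.92), a subunit of TIM23. DNAJA1, a cytosolic J protein, read 435 and 433 against 948 and 960 on its brightest probe (log2 fold change 1.22, adjusted p = 0.00508, limma), but the median over its probes was -1.01. HSPA9, the matrix Hsp70 of the import motor, was detected in high-fertile pool 2 alone on the probe read and was not tested. GFER, the oxidase that recharges CHCHD4, and IMMT, the core of MICOS, were not well above background in any pool on the probe read.

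In a list of 14 other CX9C proteins, 10 were on the array by name and 6 were tested. CMC2, an assembly factor of complex IV, was called lower at 81.6 and 126 against 33.3 and 28.8 (log2 fold change -1.62, adjusted p = 0.00713, limma), with low-fertile pool 2 not well above background, so that it too entered through the high-fertile pools alone. This 1 of 6 is close to the 16.6% called lower over all tested genes, and 0 were higher (9.53% over all). The list had a median of -0.19, and after the GC correction CMC2 had -1.51. COX17, the copper chaperone, was not found by name.

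In a list of 8 partners and targets of CHCHD2, 6 were tested, 1 was called lower and 0 higher, with a median of 0.06, and 1 of 6 is close to the 16.6% called lower over all tested genes. RBPJ, the transcription factor of Notch signalling with which CHCHD2 acts in the nucleus, read 107 and 110 in the high-fertile against 39.3 and 51.7 in the low-fertile pools (log2 fold change -1.18, adjusted p = 0.0159, limma). Without high-fertile pool 1 or 2 its adjusted p was 0.0653 and 0.0707. COX4I2, a complex IV subunit gene that CHCHD2 is known to activate, had a log2 fold change of 0.06 (adjusted p = 0.826, limma). COX4I1, named after its values were seen, read 1489 in high-fertile pool 1 and 48.7 to 57.4 in the other pools, so its value of -2.45 (SE 1.43, adjusted p = 0.249, limma) rests on 1 pool.

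The labelled cell type was checked against markers, beside the 16.6% of all tested genes called lower and 9.53% called higher. Each marker was read from its brightest probe, tested probes first, and detection refers to that probe. Of 15 sperm genes 5 were tested, and PRM1, a protamine, was higher in the low-fertile pools (log2 fold change 0.67, adjusted p = 0.0231, limma), while TNP1, ODF1, ODF2 and GAPDHS were not called. AKAP4, SMCP, CRISP2, LDHC, SPEM1 and HSPA1L were well above background on no array. Of 8 leukocyte genes 7 were tested and 1 was called: PTPRC, the pan-leukocyte phosphatase, read 6981 and 7126 in the high-fertile and 11500 and 11390 in the low-fertile pools (log2 fold change 0.78, adjusted p = 0.016, limma). CD4, a T cell and macrophage marker, went the other way, at 1087 and 1285 against 969 and 674 (log2 fold change -0.46, adjusted p = 0.121, limma), and ITGB2 had -0.09. LYZ, a phagocyte enzyme, read 13580 and 12420 against 16230 and 15620 (log2 fold change 0.38, adjusted p = 0.117, limma), CD14, a monocyte receptor, had 0.40 (adjusted p = 0.111, limma), and CD3E, a T cell marker, was well above background on no array. The summed log2 level of a list is the log2 of its summed normalized signals, so its brightest genes dominate it. For the leukocyte list it was 9.23 and 9.16 against 9.62 and 9.75, and for the sperm list 4.29 and 3.97 against 3.96 and 4.01. PRM2, a protamine of the sperm list, read 179.9 in high-fertile pool 1 and 14.7, 14.0 and 9.58 in the others. Of 6 epithelial genes 4 were tested and 0 called, with a summed log2 level of 4.33 and 4.32 against 4.30 and 4.49, with EPCAM and CDH1 well above background on no array. Of 4 red cell genes 2 were tested, 0 were called lower and 1 higher, with a summed log2 level of 2.32 and 3.04 against 2.61 and 2.80. HBB, a globin, was higher at 54.1 in both low-fertile pools against 20.4 and 29.0 (adjusted p = 0.0118, limma), and entered the test through the low-fertile pools alone. HBA, another globin, read 138 and 258 in the high-fertile against 155 and 161 in the low-fertile pools (log2 fold change -0.17, adjusted p = 0.705, limma). Of 6 genes of Sertoli and Leydig cells 5 were tested, 0 were called lower and 1 higher, with a summed log2 level of 3.81 and 4.15 against 4.14 and 4.31. STAR, which brings cholesterol into mitochondria, was higher at 170 and 179 in the low-fertile pools against 111 and 104 (adjusted p = 0.0212, limma). The others were not called, with log2 fold changes of 0.26 for CYP17A1, 0.09 for AMH, -0.12 for INHBB and -0.27 for HSD3B1. The part of other cells in the falls of CHCHD2, TOMM20 and the small TIMs was not tested, and in such bulk samples fewer cells of a type and less RNA per cell cannot be told apart.

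The name rule misses genes that the array lists under an older name or an accession. By current symbol these were TIMM29 (log2 fold change 0.65, adjusted p = 0.0585, limma) and TIMM10B (0.17, adjusted p = 0.53, limma), and TIMM17A and another probe of MTX3, which were well above background in low-fertile pool 1 alone and did not reach the filter.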

How the data were processed

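Sperm RNA of 2 high-fertile and 2 low-fertile pools, each of 2 bulls, was measured on 4 single-dye arrays. The authors quantified the images with Agilent Feature Extraction (version 11.5.1.1 per the file headers) and deposited the scanner intensity values, background subtracted, with surrogate values for spots not above it. The authors also deposited a table of log2 processed signals shifted by the 75th percentile in GeneSpring GX, used here as an alternative.

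Starting again from the scanner files, Python 3.11.15 was used to derive the values. Outlier spots were left out, log2 spots of a probe averaged and the 75th percentile over sample probes subtracted. A probe was well above background when at least 0.5 of its spots were so marked. Of 51282 sample probes, 21033 entered the fit (limma 3.58.1 in R 4.3.3) and were called at an adjusted p under 0.05. No probe was saturated. The precision is limited by having 4 arrays.

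CHCHD2, every called gene and every gene with a disagreeing called probe were named with full values, and in each list the called gene with the largest change each way and genes with a set role. Members and lists were chosen with earlier results of these data known. Gene names are those of the array, updated through RefSeq accessions where they matched. The alternatives covered scaling, background, filter, outlier spots, probe choice, variance trend, test, local position, block, left-out pools and, chosen after seeing the data, GC content.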

Additional observations from a re-analysis of the deposited data

How the results depend on the processing

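The count of 5 lower genes was 0 without a filter on dim probes and with the methods' t-test, 3 with the local correction over 24 spots, 3 with the GC correction, 4 with the percentile over detected probes, 6 with normexp and with the intensity trend, and 7 with the spike-in shift. Left-out pools gave 2 to 5. The count of 0 higher genes was 1 with normexp and with the median over probes, and 0 to 1 with pools left out. In the list of import partners, lower genes numbered 10 with the spike-in shift, 8 with normexp and 0 without the filter and with the t-test. Higher ones there numbered 0 under these last 2 settings and with the median over probes, and 2 with the GC correction (1 to 2 with pools left out). For the CX9C list, lower genes numbered 4 with the spike-in shift, 2 with normexp, the intensity trend or the local correction, and 0 without the filter or with the t-test. For the CHCHD2 partners they numbered 0 under both of these, and 0 to 1 with pools left out. The pool numbers did not pair the samples (r = 0.00548 between the pool differences), and a replicate block gave 4 lower member genes and 7 import partners.

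Signs turned as follows. The spike-in shift gave -0.23 for CHCHD10, -0.19 for CHCHD3, -0.16 for CHCHD5, -0.0702 for MTX1, -0.33 for PHB2, -0.40 for TIMM22, -0.27 for TIMM50 and -0.22 for TOMM40L. Normexp gave -0.0516 for PHB2, -0.0043 for TIMM22, -0.0017 for TOMM40L and 0.036 for TOMM6. The local correction gave -0.0241 for CHCHD3, -0.0453 for PHB2 and 0.25 for TOMM6. The GC correction gave -0.0377 for CHCHD10, 0.039 for PHB, -0.0845 for TIMM50, 0.46 for TIMM8B and 0.11 for TOMM6. TOMM6 was 0.0314 with the percentile over detected probes and 0.0092 with quantile normalization, and DNAJA1 was -1.01 with the median over its probes. With pools left out, the ranges were -0.0012 to 0.45 for CHCHD3, -0.20 to 0.37 for PHB2, -0.17 to 0.0459 for SAMM50, -0.0789 to 0.0909 for TIMM22, -0.0881 to 0.47 for TOMM40L and -0.0911 to 0.0861 for TOMM6. The causes were not tested.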
